A study of Mus musculus with 6 samples.

Results

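Plexins, semaphorins and neuropilins were described here as a family of 31 genes: 9 plexins, 20 semaphorins and 2 neuropilins, out of 19938 genes that the array table names. The members were chosen by symbol, as every gene whose name starts with Plxn or with Sema and a digit, plus Nrp1 and Nrp2. No difference between the groups entered that choice, but the family was proposed with results of the same comparison in view, so its counts are given as a description. Sema4d and Sema6b had several probe sets, and the one with the highest mean over all 6 arrays stood for the gene.

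The samples were BCR-ABL1-transformed mouse pre-B cells, a model of Philadelphia chromosome-positive acute lymphoblastic leukaemia, whose labels give the strain as 129SvEv x C57BL/6J and the age of the mice as 5 weeks. All 6 samples carried the Sox4fl/fl genotype, in which Cre recombinase can remove Sox4, a SoxC transcription factor gene. The control group was 3 samples transduced with ERT2, an oestrogen receptor fragment that responds to tamoxifen and carries no recombinase, and the other group was 3 samples transduced with Cre-ERT2, the recombinase that 4OHT (4-hydroxytamoxifen) activates. The arrays, from Affymetrix, were loaded with total RNA, and the series text puts its extraction 24 h after deletion was induced by 4OHT. The labels do not say whether the ERT2 samples received 4OHT, and no sample combined Cre-ERT2 with unfloxed Sox4, so loss of Sox4, activity of Cre and, if the controls went without it, 4OHT itself cannot be told apart. The labels do not say whether the samples of a group were separate cultures, so the p-values rest on a spread between samples that may be technical only.

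Semaphorins are secreted or membrane-bound signals first known for steering axons, and plexins are the transmembrane receptors that bind most of them through a shared extracellular sema domain. Inside the cell a plexin acts as a GTPase-activating protein for small Ras-like GTPases, which loosens integrin adhesion and remodels actin. Most secreted class 3 semaphorins need a neuropilin as co-receptor, whereas Sema3e binds Plxnd1 directly and membrane-bound semaphorins bind plexins without a neuropilin. In lymphocytes Sema4a, Sema4d (CD100) and Sema7a (CD108) are known as immune semaphorins.

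Sox4 itself fell, as a check of the labels: its intensity was 1459, 1372 and 1237 in the ERT2 arrays and 599, 541 and 499 in the Cre-ERT2 arrays, a log2 difference of -1.31 (SE 0.0912, limma adjusted p = 0.000434; exact two-sided permutation p = 0.1, the smallest that 3 against 3 allows). Arrays were alike in their median intensity (273 to 279). The pre-B cell genes Pax5, Ebf1, Cd79a, Cd79b, Blnk, Igll1, Vpreb1 and Cd24a, taken as defining markers, had mean intensities of at least 2299 in both groups, and 0 of these 8 passed limma's threshold, with 1 at an unadjusted p under 0.05.

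Of the 31 members 10 passed an adjusted p of 0.05 in the limma fit over all probe sets, 7 higher and 3 lower in Cre-ERT2 cells. Over all genes the same fit called 8.10%, with 4.38% higher and 3.72% lower. The groups did not overlap in 13 members, against 28.3% of all genes. The median log2 difference was 0.02 over the members and 0.02 over all genes. Sema5a and Plxna2 fell, Plxna2 4.53-fold on the log2(intensity + 1) scale and Sema5a at least 3.73-fold, a lower bound because its Cre-ERT2 signal was faint. The member nearest to the threshold on its inner side was Sema3e (adjusted p = 0.0432) and on its outer side Sema3g (adjusted p = 0.449). For the 21 members that did not pass, the 95% intervals of the log2 difference all lay between -0.22 and 0.39. In a culture, fewer cells with a transcript and less of it per cell cannot be told apart.

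**Figure D1:**
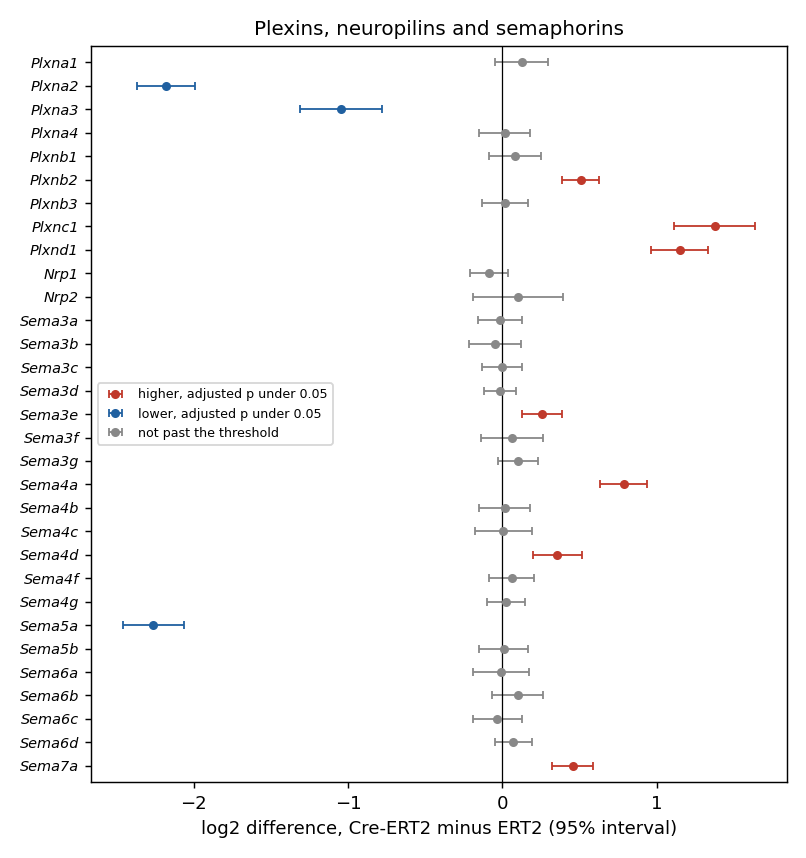
Log2 difference of each of the 31 members (Cre-ERT2 minus ERT2, 3 arrays a group) with its 95% interval from the limma fit; red and blue points passed an adjusted p of 0.05 and grey points did not. Sema5a, whose Cre-ERT2 signal was faint, and Plxna2 lie below -2, Plxnc1 and Plxnd1 lie above 1, and all 21 grey intervals stay between -0.22 and 0.39.

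The deposited table has no detection call, so olfactory receptor genes, which lymphoid cells are not known to use, served as a rough guide to faint signal. Of 1027 such genes 95% had a mean intensity under 188. Probe sets differ in how brightly they bind, so this guide ranks no gene against another. By it 9 of the 31 members were dim in both groups: Nrp1, Nrp2, Sema3a, Sema3c, Sema3d, Sema4c, Sema4f, Sema4g and Sema6a. None of the 9 was called, and a difference between these groups may not be detectable for them at this signal.

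The A plexins, which serve class 3 semaphorins together with neuropilins and bind class 6 semaphorins directly, fell or did not pass. Plxna2, a receptor of Sema6a and Sema6b (probe set 10352867), had intensities of 1019, 1122 and 922 in the ERT2 arrays and of 218, 225 and 229 in the Cre-ERT2 arrays. Every Cre-ERT2 array lay far below every control. The mean went from 1021 ± 100.1 to 224 ± 5.65 (SD, n = 3 each), 21.9% of the control level, and the log2 difference was -2.18 (SE 0.0784, limma adjusted p = 4.12e-05). Plxna3, known as a partner of Nrp2 for Sema3f (probe set 10600419), had intensities of 454, 449 and 402 in the controls and of 203, 246 and 186 in the Cre-ERT2 arrays, again without overlap. Its log2 difference was -1.04 (SE 0.111, limma adjusted p = 0.00263), which left 48.6% of the control mean. The Cre-ERT2 values of Plxna3 lay around the faint limit of 188, and those of Plxna2 not far above it. Plxna1, a receptor of Sema6c and Sema6d, read 3231, 3167 and 2786 in the controls and 3248, 3471 and 3275 in the Cre-ERT2 arrays, with a log2 difference of 0.12 (95% interval -0.05 to 0.30, limma adjusted p = 0.476). The Plxna1 groups lay next to each other, and all 3 Cre-ERT2 values were above all 3 controls by a margin smaller than the spread of the controls. Plxna4, the remaining A plexin, had a mean of 235 ± 16.9 in the controls and 238 ± 9.72 in Cre-ERT2 cells (SD, n = 3 each).

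The plexins outside the A group moved the other way where they moved. Plxnc1, the receptor of Sema7a (probe set 10372028), had intensities of 295, 325 and 246 in the ERT2 arrays and of 721, 799 and 716 in the Cre-ERT2 arrays. The lowest Cre-ERT2 array was more than 2-fold above the highest control. The log2 difference was 1.37 (SE 0.109, limma adjusted p = 0.000763), a 2.59-fold rise that was the largest of the family and the 47th largest of all genes. Plxnd1, the receptor of Sema3e and Sema4a (probe set 10547100), had intensities of 363, 364 and 336 in the controls and of 744, 871 and 753 in the Cre-ERT2 arrays. Its groups were likewise far apart, with a log2 difference of 1.15 (SE 0.0767, limma adjusted p = 0.000368), a 2.22-fold rise.

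Among the B plexins, receptors of class 4 semaphorins, Plxnb2 rose and the other members did not pass. Plxnb2, known as a receptor of Sema4c, Sema4d and Sema4a (probe set 10431424), had intensities of 233, 247 and 246 in the controls and of 338, 340 and 354 in the Cre-ERT2 arrays. The arrays within a group were close together, and the log2 difference was 0.51 (SE 0.0503, limma adjusted p = 0.00196). Plxnb1, the high-affinity receptor of Sema4d, ranged from 283 to 326 in the controls and from 317 to 341 in the Cre-ERT2 arrays, with overlapping groups and a log2 difference of 0.08 (95% interval -0.09 to 0.25). Plxnb3, a receptor of Sema5a, ranged from 200.4 to 214 and from 199 to 224, with a log2 difference of 0.02 (95% interval -0.13 to 0.17).

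**Figure D2:**
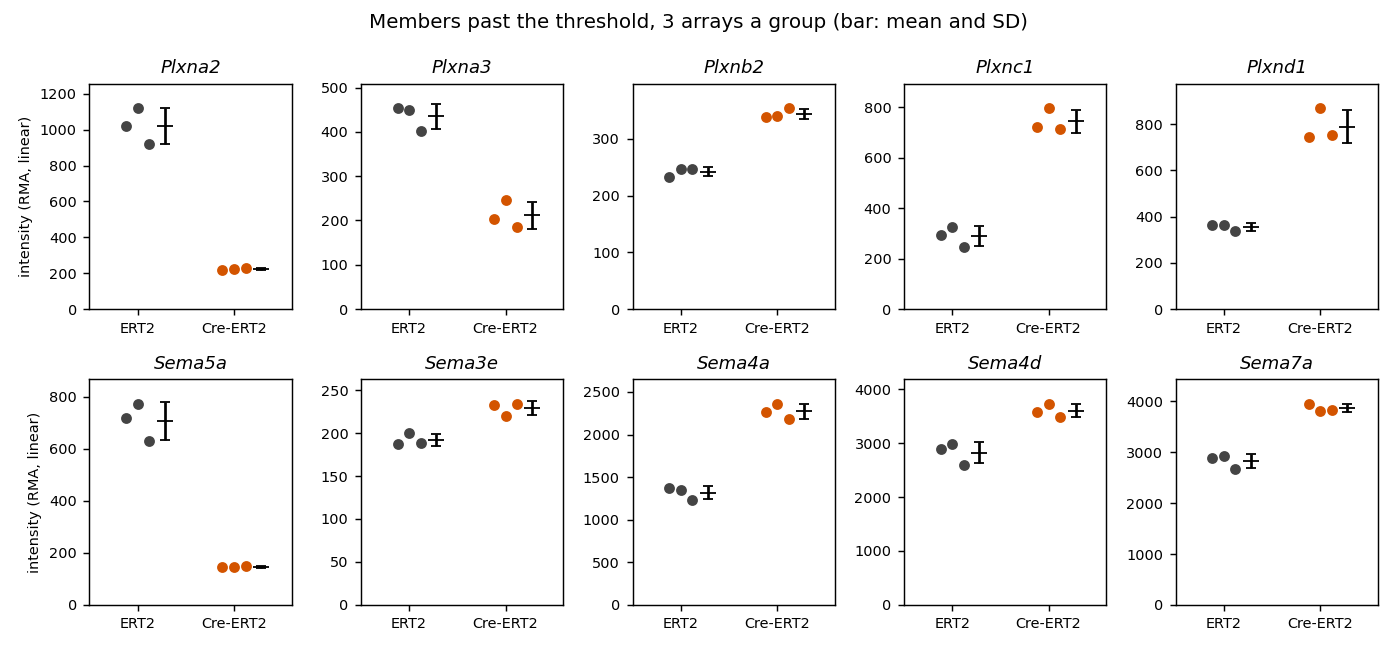
RMA intensity on a linear axis from 0 for the 10 members that passed the threshold; points are single arrays (3 ERT2, 3 Cre-ERT2) and the bar beside them is the mean with its SD. Plxna2, Plxna3 and Sema5a are lower in every Cre-ERT2 array, and the other 7 genes are higher in every Cre-ERT2 array.

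To set the genomic context of 2 members that fell and 2 that rose side by side, the 250 bases before the annotated start are shown for Plxna2 (chr1:194619579-194619828, plus strand), Sema5a (chr15:32244563-32244812, plus strand), Plxnc1 (chr10:94944846-94945095, minus strand) and Plxnd1 (chr6:115995006-115995255, minus strand). They come from RefSeq's annotation of GRCm38.p6 and read 5′ to 3′ in the direction of the gene. Capitals mark matches to ACAAAG or ACAATG on either strand, the core letters of sites that Sox proteins are known to bind, and since the cores differ in a letter they never mark the same place on a strand.
Plxna2: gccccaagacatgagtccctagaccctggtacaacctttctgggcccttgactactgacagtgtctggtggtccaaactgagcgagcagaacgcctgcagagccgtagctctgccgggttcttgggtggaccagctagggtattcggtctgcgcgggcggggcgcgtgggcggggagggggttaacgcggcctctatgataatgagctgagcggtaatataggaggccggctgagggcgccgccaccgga
Sema5a: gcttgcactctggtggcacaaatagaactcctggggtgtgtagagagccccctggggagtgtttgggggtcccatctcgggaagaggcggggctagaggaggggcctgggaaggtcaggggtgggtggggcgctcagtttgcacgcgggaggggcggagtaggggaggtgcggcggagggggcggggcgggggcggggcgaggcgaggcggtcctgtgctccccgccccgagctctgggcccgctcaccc
Plxnc1: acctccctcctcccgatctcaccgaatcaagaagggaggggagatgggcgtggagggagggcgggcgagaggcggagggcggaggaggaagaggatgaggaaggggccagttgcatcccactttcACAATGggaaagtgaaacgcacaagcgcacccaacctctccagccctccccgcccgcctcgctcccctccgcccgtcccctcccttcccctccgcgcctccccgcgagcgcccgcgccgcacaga
Plxnd1: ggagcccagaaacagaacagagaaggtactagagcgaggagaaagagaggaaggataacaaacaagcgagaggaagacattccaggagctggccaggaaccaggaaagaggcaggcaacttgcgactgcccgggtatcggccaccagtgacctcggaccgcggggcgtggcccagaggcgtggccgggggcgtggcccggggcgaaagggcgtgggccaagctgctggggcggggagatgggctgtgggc

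These windows were rich in G and C, at 62.8% in Plxna2, 72.0% in Sema5a, 68.8% in Plxnc1 and 64.8% in Plxnd1, against a median of 52.4% over all 32851 promoters of the table. The median over the promoters of the members was 64.0%, so a high share was not particular to these 4. Not every member had it: Sema3a was at 40.8% and the called member Sema3e at 48.0%. Of the 4, Plxnc1 held a match, ACAATG on the plus strand of the gene, 125 to 120 bases before the start. Promoters were found for 26 of the 31 members, with 37 starts in all, and 8 of these (21.6%) held either core, against 25.2% of all promoters. Among the 3 members that fell, 0 of 3 promoters held a match, and among the 7 that rose, 3 of 13 did. These are letter matches in a short window and say nothing of binding.

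The neuropilins, co-receptors of class 3 semaphorins and of VEGF, were dim and neither passed. Nrp1 read 137, 136 and 147 in the controls and 132, 129 and 133 in the Cre-ERT2 arrays, with a log2 difference of -0.09 (95% interval -0.21 to 0.04, limma adjusted p = 0.486). Its groups did not overlap, but the step between them was smaller than the range of the controls. Nrp2 read 145, 146 and 192 in the controls and 178, 158 and 178 in the Cre-ERT2 arrays, and ERT2 replicate 3 lay above all the other arrays. Its interval was the widest of the family, from -0.19 to 0.39.

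The ligands Sema4a and Sema7a rose. Sema4a, an immune semaphorin known from T-cell priming (probe set 10499378), had intensities of 1376, 1350 and 1229 in the ERT2 arrays and of 2270, 2364 and 2181 in the Cre-ERT2 arrays. The groups were well separated, with a log2 difference of 0.79 (SE 0.0632, limma adjusted p = 0.000809), a 1.72-fold rise. Sema7a, a semaphorin held in the membrane by a lipid anchor (probe set 10585778), had intensities of 2889, 2926 and 2666 in the controls and of 3959, 3815 and 3841 in the Cre-ERT2 arrays. Its log2 difference was 0.45 (SE 0.0549, limma adjusted p = 0.00466).

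Sema4d and Sema3e passed closer to the threshold. Sema4d, the CD100 antigen that acts on plexins and on CD72 of B cells (probe set 10409240), had intensities of 2884, 2977 and 2599 in the controls and of 3585, 3734 and 3487 in the Cre-ERT2 arrays. The groups did not overlap, and the log2 difference was 0.35 (SE 0.0664, limma adjusted p = 0.0286). A second Sema4d probe set gave a difference of 0.04 (SE 0.0586, limma adjusted p = 0.855) with overlapping groups, so the probe sets of this gene disagreed. The mean of both gave 0.20 (limma adjusted p = 0.0750). Leaving out any array other than ERT2 replicate 2 ended the call of Sema4d: its limma adjusted p became 0.0864 and 0.0535 when control replicates 1 and 3 were dropped in turn, and 0.0953, 0.116 and 0.0873 when Cre-ERT2 replicates 1, 2 and 3 were. Sema3e, the secreted ligand of Plxnd1 (probe set 10519747), had intensities of 188, 200 and 188 in the controls and of 233, 220 and 234 in the Cre-ERT2 arrays. It was close to faint signal in both groups, and its log2 difference was 0.25 (SE 0.0532, limma adjusted p = 0.0432). Its call ended without ERT2 replicate 1 (0.156), ERT2 replicate 3 (0.123), or Cre-ERT2 replicate 1 (0.147), 2 (0.0889) or 3 (0.182), as it did with an intensity trend (0.0614) and under cyclic loess (0.0570).

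The ligand that fell was Sema5a, a membrane semaphorin with thrombospondin repeats (probe set 10423520). Its intensities were 717, 774 and 630 in the ERT2 arrays and 144, 144 and 151 in the Cre-ERT2 arrays. The mean went from 707 ± 72.3 to 146 ± 3.88 (SD, n = 3 each), 20.7% of the control level and inside the range of the faint guide signal. With the upper limit of that guide signal in place of the Cre-ERT2 mean, the fall was at least 3.73-fold, while the fit on the faint values themselves gave a log2 difference of -2.26 (SE 0.0815, limma adjusted p = 4.12e-05). Its relative Sema5b had means of 264 ± 11.6 and 265 ± 16.6 (SD, n = 3 each) and a log2 difference of 0.01.

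The other 15 semaphorins did not pass, with log2 differences from -0.05 to 0.10 and limma adjusted p-values from 0.449 to 0.994. Of these, Sema6d and Sema4b gave bright signal. Sema6d, a ligand of Plxna1, read 3557, 3769 and 3586 in the controls and 3694, 3891 and 3865 in the Cre-ERT2 arrays, and its groups overlapped. Its log2 difference was 0.07 (95% interval -0.05 to 0.19). Sema4b ranged from 1880 to 2108 in the controls and from 1865 to 2079 in the Cre-ERT2 arrays, with a log2 difference of 0.01 (95% interval -0.15 to 0.18). The class 6 ligands of Plxna2 were among those that did not pass. Sema6a had a difference of -0.01 and Sema6b one of 0.10, and the Sema6b probe sets carried the same values in every array. Of the class 3 ligands of neuropilins, Sema3a, Sema3b, Sema3c, Sema3d, Sema3f and Sema3g, all 6 had 95% intervals between -0.22 and 0.26.

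Receptors were then matched with their ligands in 30 pairs taken from textbook knowledge, many of which share a gene. In 5 pairs both genes were called higher: Sema7a with Plxnc1, Sema3e with Plxnd1, Sema4a with Plxnd1, Sema4a with Plxnb2, and Sema4d with Plxnb2. That number was 3 when control replicate 1 or 3 or a Cre-ERT2 array was dropped, since Sema3e and Sema4d then lost their calls, and 4 or 5 under the other alternatives, a count made after the data were seen. In 1 pair both were called lower, Sema5a with Plxna3. Sema5a was not paired with Plxna2, which was called lower as well. In 11 pairs 1 gene was called, among them Plxna2 with Sema6a or Sema6b, and Sema5a with Plxna1 or Plxnb3. In 13 pairs neither was called, and in 0 pairs were the genes called in opposite directions. The pairs hold members of the family alone, so Sema4d with its receptor Cd72, which was called lower, is not among them. Class 3 semaphorins were paired with neuropilins or Plxnd1 and not with A plexins. Plxna2 or Plxna3, both called lower, beside an uncalled class 3 ligand such as Sema3f is therefore not counted, and the counts depend on this choice. These counts rest on 5 called receptors and 5 called ligands, so the pairs are no independent observations, and protein and binding were not measured.

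**Figure D3:**
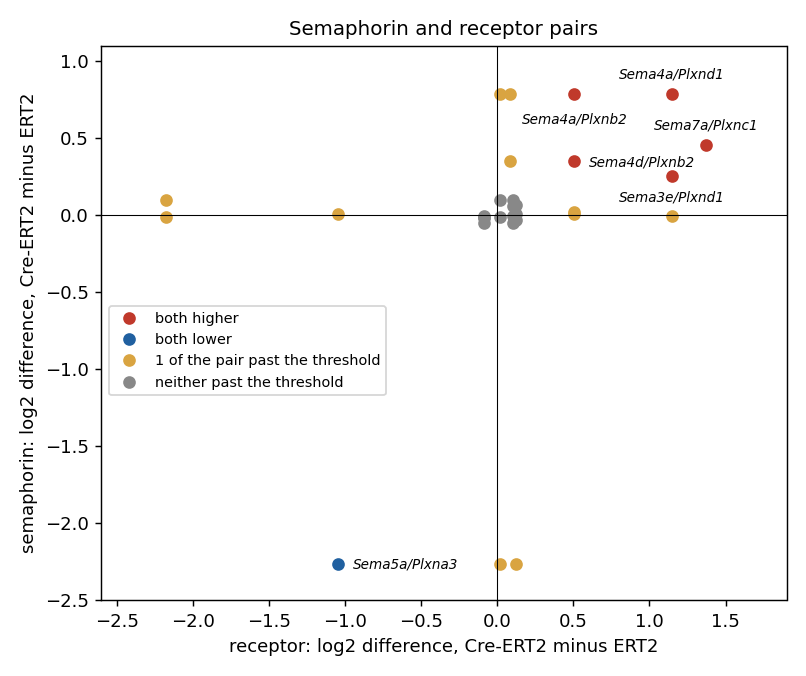
Log2 difference (Cre-ERT2 minus ERT2) of the semaphorin against that of its receptor for 30 known pairs; colours give whether both, 1 or neither gene passed an adjusted p of 0.05. The 5 named pairs at the upper right are higher on both axes, and Sema5a with Plxna3 is lower on both. Plxna2 lies at the far left with Sema6a and Sema6b, the ligands paired with it here, near 0. Pairs that share a gene share a coordinate.

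Some genes of a partner list outside the plexins moved as well. The list held 23 genes: further receptors, co-receptors, shedding proteases, neuropilin ligands and plexin-domain proteins. It had 1 gene called higher and 3 called lower (17.4% of the list, against 8.10% of all genes), with a median log2 difference of -0.02. Cd72, the B-cell receptor of Sema4d with an inhibitory motif, had intensities of 4703, 5054 and 4663 in the controls and of 2399, 2557 and 2506 in the Cre-ERT2 arrays. It fell to 51.7% of the control mean, a log2 difference of -0.95 (SE 0.0552, limma adjusted p = 0.000219). Its ligand Sema4d was called higher on the brighter of its probe sets alone. Plxdc1 is a plexin-domain protein that is no plexin. It was listed for that domain and not as a known receptor or ligand of the family, yet it counts among the 3 called lower. Plxdc1 had intensities of 1570, 1692 and 1385 in the controls and of 264, 287 and 275 in the Cre-ERT2 arrays. Its log2 difference was -2.48 (SE 0.0827, limma adjusted p = 3.58e-05), beside -2.18 for Plxna2.

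Of 4 VEGF-family genes in the list, Vegfa was called higher and Pgf lower, while Vegfb and Vegfc had log2 differences of -0.02 and 0.23 (limma adjusted p = 0.922 and 0.358) and were not called. Vegfa read 3330, 3255 and 3146 in the controls and 4163, 3961 and 4120 in the Cre-ERT2 arrays, a log2 difference of 0.33 (SE 0.0490, limma adjusted p = 0.0109). Pgf, the placental growth factor, read 2693, 2796 and 2544 in the controls and 2190, 2172 and 2140 in the Cre-ERT2 arrays, a difference of -0.30 (SE 0.0527, limma adjusted p = 0.0214). The call of Vegfa ended when Cre-ERT2 replicate 1 (0.0530) or 3 (0.0678) was dropped, and that of Pgf without ERT2 replicate 1 (0.0891) or Cre-ERT2 replicate 1 (0.0736), 2 (0.0903) or 3 (0.105). The number called in the partner list was 2 without Cre-ERT2 replicate 1 or 3. Timd2, a receptor of Sema4a, was dim, and the integrin chain Itgb1, part of a receptor of Sema7a, had a log2 difference of -0.04 (95% interval -0.17 to 0.09). Itga1, the other chain of that receptor, was dim and not called, though its groups did not overlap. The log2 difference of Itga1 was 0.30 (95% interval 0.14 to 0.46, limma adjusted p = 0.0544).

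Of 38 measured genes of signalling below plexins 3 were called higher and 1 lower (10.5%, against 8.10% of all genes), with a median log2 difference of 0.01. Rnd3, a small GTPase that does not hydrolyse GTP, had intensities of 83.5, 74.8 and 85.1 in the controls and of 196, 206 and 219 in the Cre-ERT2 arrays. The controls were in the faint range and the Cre-ERT2 arrays just above its limit of 188, so the rise was at least 1.1-fold against that limit. The fit on the faint values themselves gave a log2 difference of 1.34 (SE 0.0715, limma adjusted p = 0.000162). Limk1, the kinase that inactivates the actin-severing protein cofilin, had intensities of 592, 620 and 504 in the controls and of 1129, 1225 and 1165 in the Cre-ERT2 arrays. Its log2 difference was 1.04 (SE 0.0868, limma adjusted p = 0.00094), a 2.06-fold rise. Pip5k1c, a lipid kinase of integrin adhesions, and Mical3, of the MICAL family of actin-oxidising enzymes, had log2 differences of 0.34 (limma adjusted p = 0.027) and -0.29 (limma adjusted p = 0.0372).

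A second Mical3 probe set, dimmer in the mean over the 6 arrays, had a larger difference of -1.10 (SE 0.0474, limma adjusted p = 7.9e-05), in the same direction. The lost calls given next for Mical3 are those of the probe set with the higher mean. Pip5k1c lost its call without ERT2 replicate 2 (0.0581) or 3 (0.0621) or Cre-ERT2 replicate 1 (0.101), 2 (0.111) or 3 (0.0762), and Mical3 without any of the arrays except ERT2 replicate 2 (0.102 to 0.144) and after a further quantile normalization (0.0678). The effector list had 2 genes called when ERT2 replicate 3 or a Cre-ERT2 array was dropped. The GTPase Rac1 and the collapsin response mediator Dpysl2 had log2 differences of 0.00 and -0.08, and neither passed.

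**Figure D4:**
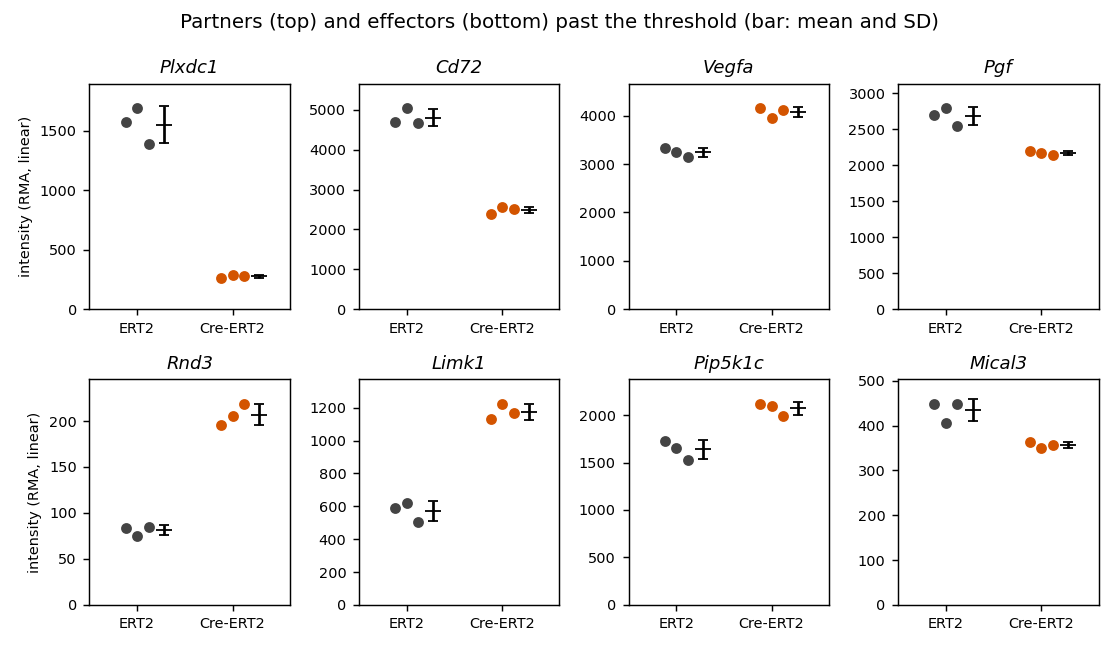
RMA intensity on a linear axis from 0 for the 4 genes of the partner list (top) and 4 of the effector list (bottom) that passed the threshold. Points are single arrays and the bar is the mean with its SD (3 arrays a group). Plxdc1, Cd72, Pgf and Mical3 are lower and Vegfa, Rnd3, Limk1 and Pip5k1c higher in every Cre-ERT2 array.

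Lists of other axon guidance families were read from the same fit. Of 21 measured ephrins and Eph receptors 1 was called, Ephb4, the receptor of ephrin B2, with intensities of 232, 199 and 238 in the controls and of 373, 387 and 368 in the Cre-ERT2 arrays and a log2 difference of 0.75 (SE 0.0781, limma adjusted p = 0.0024). Of these 21 genes 7 had an unadjusted limma p under 0.05. With estimated array weights 4 of them were called, and among probe sets with 1 gene 3 were. Of 12 netrin-family genes and of 10 Slit and Robo genes 0 were called by limma, against 8.10% of all genes, with 1 and 0 at an unadjusted p under 0.05 and smallest adjusted p-values of 0.0898 and 0.660. In the netrin list 1 gene was called with array weights, and 1 among probe sets with 1 gene. Whether the semaphorin family differed from these lists was not tested.

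Several markers of other cell types differed between the groups too. Of 8 myeloid markers Lyz2 was higher, from 310 to 378 in the controls and from 819 to 994 in the Cre-ERT2 arrays. Itgam was lower, with a log2 difference of -0.49 (limma adjusted p = 0.0129). Its limma adjusted p was 0.0574 without ERT2 replicate 1 and 0.0558 when Cre-ERT2 replicate 2 was dropped. Itgam read 198, 204 and 194 in the controls, just above the faint range. In the Cre-ERT2 arrays Itgam read 128, 141 and 154, inside that range, so its log2 difference rests on faint values. The summed intensity of the 8 markers was 1817 to 1920 in the controls and 2257 to 2442 in the Cre-ERT2 arrays. Lyz2 alone went from a mean of 351 to 932, and of the 8 markers 3 had differences above 0 and 5 below. Of the 8, Csf1r, Mpo, Adgre1 and Cd14 were in the faint range in both groups and none of these was called. Cd68 and Elane lay above it and were not called, with means of 608 ± 55.0 and 223 ± 5.72 in the controls and 595 ± 16.3 and 213 ± 17.6 in Cre-ERT2 cells (SD, n = 3 each). Lat, an adaptor of antigen receptors, was the 1 of 7 T-cell markers called (0.47, limma adjusted p = 0.00369; summed intensity 1484 to 1566 and 1706 to 1778), while Cd3d, Cd3g, Cd4 and Trat1 were faint. Lat alone went from a mean of 643 to 889, and of the 7 markers 3 had differences above 0 and 4 below. Cd3e and Cd8a lay above the faint range and were not called, with means of 247 ± 4.52 and 253 ± 22.7 in the controls and 246 ± 11.4 and 231 ± 17.9 in Cre-ERT2 cells (SD, n = 3 each). Pecam1 was the 1 of 8 stromal and endothelial markers called (0.33, limma adjusted p = 0.0162; summed intensity 2846 to 3073 and 3245 to 3433), a call that ended without ERT2 replicate 1 (0.0516) or Cre-ERT2 replicate 1 (0.0643), 2 (0.0801) or 3 (0.0750). None of 4 NK-cell, 5 dendritic-cell and 3 erythroid markers was called by limma, with 0 of each list at an unadjusted p under 0.05. No array value in the table is 0. The part of these cell types in the semaphorin and plexin differences was not tested.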

How the data were processed

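RNA of 6 samples, 3 per group by the transduced construct, was measured on 1 array each. The authors made the deposited intensity values with RMA (background correction, quantile normalization, 1 value per probe set), per the submitters' processing notes; it came with version and genome build not given in the sources used here. Their range of 6.27 to 26714 shows a linear scale, so log2(intensity + 1) was used, which slightly understates differences of dim probe sets. Quantile normalization would hide a shift common to all genes, and with 6 arrays the precision is limited by their number. The platform table names 1 gene for 21789 of 35556 probe sets, several for 1621 and none for 12146; probe sets with several genes named none. By gene identifier 21698 matched the RefSeq table of GRCm38.p6.

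All probe sets were fitted with limma 3.58.1 in R 4.3.3 (lmFit, eBayes) and adjusted by Benjamini-Hochberg; a call is an adjusted p under 0.05. The fit was checked on simulated data with independent normal noise and known added shifts. Such data cannot show the effect of technical replicates or faint signal. Errors are moderated standard errors, and intervals are 95% intervals of the fit. Alternatives were an intensity trend, robust fitting, brighter or named probe sets alone, median centring, quantile or cyclic loess normalization, array weights, the replicate block, a pseudocount of 16 or none, averaging the probe sets of a gene, and each array left out. The members, lists and pairs were chosen with earlier results of these data known. Named were every member, in full those called and their pairs, and up to 6 called genes of each list with the smallest p; uncalled list genes named beside them were picked after their values were seen.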

Additional observations from a re-analysis of the deposited data

How the results depend on the processing

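Of the 10 members called, 8 kept their call and direction under all 18 alternatives, 2 (Sema4d and Sema3e) lost it under some, and 0 of the other 21 gained one. The number of members called lay between 8 and 10 when single arrays were left out, with 5 to 7 higher and 3 lower, and was 9 or 10 under the other alternatives. Sox4 kept its call, with log2 differences from -1.38 to -1.25 when single arrays were left out. Over all probe sets 1143 were higher and 1009 lower; array weights gave 2415 and 1612, and leaving out single arrays gave 606 to 1319 and 654 to 883. In the 5 pathway lists together 5 genes were higher and 4 lower; array weights gave 9 and 7, probe sets with 1 gene alone gave 9 higher, and leaving out single arrays gave 3 to 5 and 2 to 4. Same-numbered samples of the groups deviated together with r of 0.20, 0.34 and -0.05, so the numbers were not taken to pair the samples; with the replicate block 9 members were called (Sema3e was not, limma adjusted p = 0.113), 959 probe sets were higher and 877 lower, and 7 list genes were higher and 2 lower, as Mical3 (0.0603) and Pgf (0.0505) lost their calls. Faint signal limits what can be seen for the 9 dim members.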

Other observations

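In the RefSeq gene table (GRCm38.p6) the 10 called members had 20 protein-coding neighbours, of which 19 had a value; 2 of these were called higher and 1 lower, each in the direction of the member beside it, where 8.10% of all genes were called (4.38% higher and 3.72% lower). Cep83, next to Plxnc1, had a log2 difference of 0.34 (SE 0.0673, limma adjusted p = 0.0362), Ubl7, next to Sema7a, 0.38 (SE 0.0527, limma adjusted p = 0.00855) and Camk1g, next to Plxna2, -0.35 (SE 0.0706, limma adjusted p = 0.0393). The neighbours of Sema5a, Tas2r119 and Sdc2, had differences of -0.07 and -0.03 and were not called. Gene order does not say which part of a difference a pair shares, and the neighbours were looked up after the members had been called.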
